A study of Mus musculus with 8 samples.

Results

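Chromosomal DNA is copied in S phase by proteins that act in a fixed order, and the 52 genes described here encode members of each step. They were listed by name for their textbook roles, with earlier results of these data known, and each symbol matched 1 Ensembl gene among the 57010 genes of the count table. By role they comprise 7 licensing genes, 13 genes of the helicase and replisome, 4 polymerase and primase genes, 6 genes of the sliding clamp and its loader, 3 single-strand binding genes, 3 genes of the G1/S transition, 9 genes of checkpoint kinases and sensors and 7 of checkpoint mediators and effectors. All 52 passed the filter on low counts, as did 17976 genes in all.

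In G1 the origin recognition complex, Cdc6 and Cdt1 load the ring-shaped MCM helicase onto origins, and this licensing is shut down in S phase by geminin and by Cdt1 destruction. Cyclin E and E2F activity start S phase, Cdc45 and the GINS complex switch the helicase on, and polymerases alpha, delta and epsilon copy DNA with the PCNA clamp that RFC loads. Exposed single-stranded DNA bound by RPA recruits the kinase ATR, which signals through CHK1 to slow origin firing and mitotic entry, while ATM answers double-strand breaks. Mouse embryonic stem cells have a short G1 phase and spend most of their cycle in S phase.

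The series holds 8 RNA-seq libraries of mouse embryonic stem cells, 2 in each of 4 groups. Control DMSO and Control GANC were cells labelled control, treated with the solvent DMSO or with ganciclovir (GANC). HSVTK DMSO and HSVTK GANC were cells labelled HSVTK, treated in the same 2 ways. Per the series text this is a 2C::HSVTK reporter line, made so that ganciclovir would remove cells in the 2C-like state, a rare state that resembles the 2-cell embryo. The viral thymidine kinase named in the label turns ganciclovir into a toxic nucleotide that disturbs DNA synthesis. Not given in the sources used here were what the Control cells carry, the dose and length of treatment, whether the reporter line is 1 clone, and whether replicate libraries started from separate cultures. If they did not, the p-values reflect technical spread alone.

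Libraries held 29704460 to 34184475 counts. Levels are given as CPM, the count per 1e+06 counts after TMM scaling, and differences as log2 fold changes ± standard error from 1 edgeR quasi-likelihood fit over all tested genes. A gene was called, and is said to have risen or fallen, at an adjusted p below 0.05. All 10 embryonic stem cell markers were present, with summed levels of 6470 and 6587 CPM in HSVTK DMSO and 5177 to 5800 CPM in the other 6 libraries. Of the 10, 7 were called higher in HSVTK DMSO than in Control DMSO, against 16.4% of all tested genes. With ganciclovir 5 were called lower in HSVTK cells, against 15.2%, and 3 higher in Control cells, against 4.73%. The 10 markers of the 2C-like state summed to 72.9 and 78.1 CPM in the libraries labelled HSVTK GANC against 28.8 to 36.9 CPM in the other 6. In the libraries so labelled, 8 of the 10 were called higher than in HSVTK DMSO, against 13.3% of all tested genes. This goes against the removal that the label stands for, so HSVTK GANC below means the libraries so labelled. The same libraries had 3.45 and 3.56% of counts from mitochondrial genes against at most 3.17% elsewhere, and summed trophectoderm markers of 24.0 and 24.4 CPM against 41.8 to 45.9. Of 6 trophectoderm markers tested, 2 were called lower than in HSVTK DMSO, against 15.2% of all tested genes, and 0 higher. The other 4 had positive log2 fold changes that were not called, so the sum does not stand for the whole list. Summed markers of fibroblasts and feeders were 10.2 and 11.5 CPM in Control DMSO, 14.9 and 17.2 in Control GANC and 20.4 to 24.2 in the HSVTK libraries. Those of primitive endoderm were 3.28 to 5.85 CPM in the Control and 8.29 to 9.85 in the HSVTK libraries, and of mesoderm 1.00 to 3.49. Under DMSO, 2 of 4 tested fibroblast and feeder markers and 2 of 7 of primitive endoderm were called higher in HSVTK cells. Of all tested genes 16.4% were higher there, and 1 and 2 markers of these lists had a negative log2 fold change. Under ganciclovir 1 of 4 and 4 of 7 were called higher, against 11.1%. None of these lists held a gene at 0 in every library, and neuroectoderm markers summed to 113 to 166 CPM. The part of these differences in the results below was not tested. In bulk RNA, fewer cells in a cycle phase and less RNA per cell cannot be told apart.

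The 52 genes were abundant. Their mean level ran from 22.2 CPM to 592 CPM with a median of 103 CPM, against a median of 8.39 CPM over all tested genes, and no library held fewer than 561 counts of any of them. Libraries of 1 group differed by at most 1.23-fold for any of the 52. Over all genes with at least 20 counts in a group, replicate differences gave a chi-square per degree of freedom, where 1 is counting noise alone. It was 8.39 in Control GANC and 6.24 in HSVTK GANC, against 3.86 in Control DMSO and 3.58 in HSVTK DMSO. The fit took 1 spread per gene for all groups. Per length, as mean FPKM over the 8 libraries, the highest were Tipin at 158, Mcm7 at 133, Ccne1 at 133 and Mcm5 at 130.1, and the lowest were Atr at 1.56, Atrip at 3.23 and Atm at 5.04. The ranges over libraries of Mcm7 (126 to 144 FPKM), Ccne1 (123 to 149) and Mcm5 (116 to 141) overlapped, while Atr (1.25 to 1.84) lay below Atrip (3.07 to 3.37) in every library. Exons of 17 of the 52 overlap a gene on the opposite strand, and for 5 of these (Ccne2, Donson, Orc6, Rad9a and Rfc4) that gene held more counts. Whether counting used strand is not given, so the values of the 17 are uncertain. An exon of Trex1, which held 0 counts in all libraries, overlaps Atrip by 996 bases on the same strand, so the values of Atrip are uncertain as well.

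In HSVTK cells with ganciclovir, 15 of the 52 genes fell and 4 rose against HSVTK DMSO. The genes that fell included the helicase subunits Mcm6 and Mcm4, the ubiquitin ligase adaptor Dtl, the transcription factor E2f1 and the checkpoint genes Wee1, Chek1 and Cdc25a. Atm, Timeless, Rad1 and Pola1 rose. The changes were small: of the called genes Atm alone passed 1.5-fold, and the median over the 52 was -0.06 on the log2 scale against 0.01 over all tested genes. The 19 calls are 36.5% of the 52, where 28.5% of all tested genes were called (39.2% of the 6827 tested genes with a mean of at least 20 CPM). By direction, 28.8% of the 52 fell against 15.2% of all tested genes (21.6% of the abundant ones), and 7.69% rose against 13.3% (17.5%). Scaling by library size alone gave 7 higher and 12 lower, and the count was 10 without HSVTK DMSO 2. Leaving out an HSVTK library also lowered the share of all genes called. With limma on log2(FPKM + 1), Gins2, Pola1, Rfc4, Atr, Topbp1, Hus1, Rad1 and Tipin were no longer called (adjusted p = 0.0704 to 0.407) and Mcm10 was, which left 12 calls. That fit called 7.96% of 32857 genes.

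In Control cells 2 of the 52 were called after ganciclovir, E2f1 higher and Etaa1 lower. That is 3.85% of the 52, where 8.08% of all tested genes were called (14.5% of the abundant ones). By direction, 1 gene or 1.92% of the 52 was higher against 4.73% of all tested genes (8.06% of the abundant ones), and 1.92% lower against 3.35% (6.4%). The median was 0.00. Without Control GANC 1 the count was 8, without any 1 of the other Control or the HSVTK DMSO libraries it was 1, and limma on log2(FPKM + 1) called 0. The difference of both drug responses, HSVTK minus Control, was called for 16 genes, 11 negative and 5 positive. These are 30.8% of the 52, beside 25.6% of all tested genes (36.1% of the abundant ones). By direction, 21.2% of the 52 were negative against 14% of all tested genes (19.6% of the abundant ones), and 9.62% positive against 11.6% (16.4%). For E2f1 and Atm the difference passed 1.5-fold. The count fell to 7 without HSVTK DMSO 2, 8 without Control DMSO 2 and 10 without HSVTK DMSO 1 or Control DMSO 1. It was 7 with limma on log2(FPKM + 1), where Orc1, Dtl, Mcm4, Mcm5, Gins1, Gins2, Pola1, Timeless and Tipin lost their calls (adjusted p = 0.0588 to 0.124). For this difference limma called 6.03% of 32857 genes, and leaving out a library also lowered the share of all genes called.

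**Figure D1:**
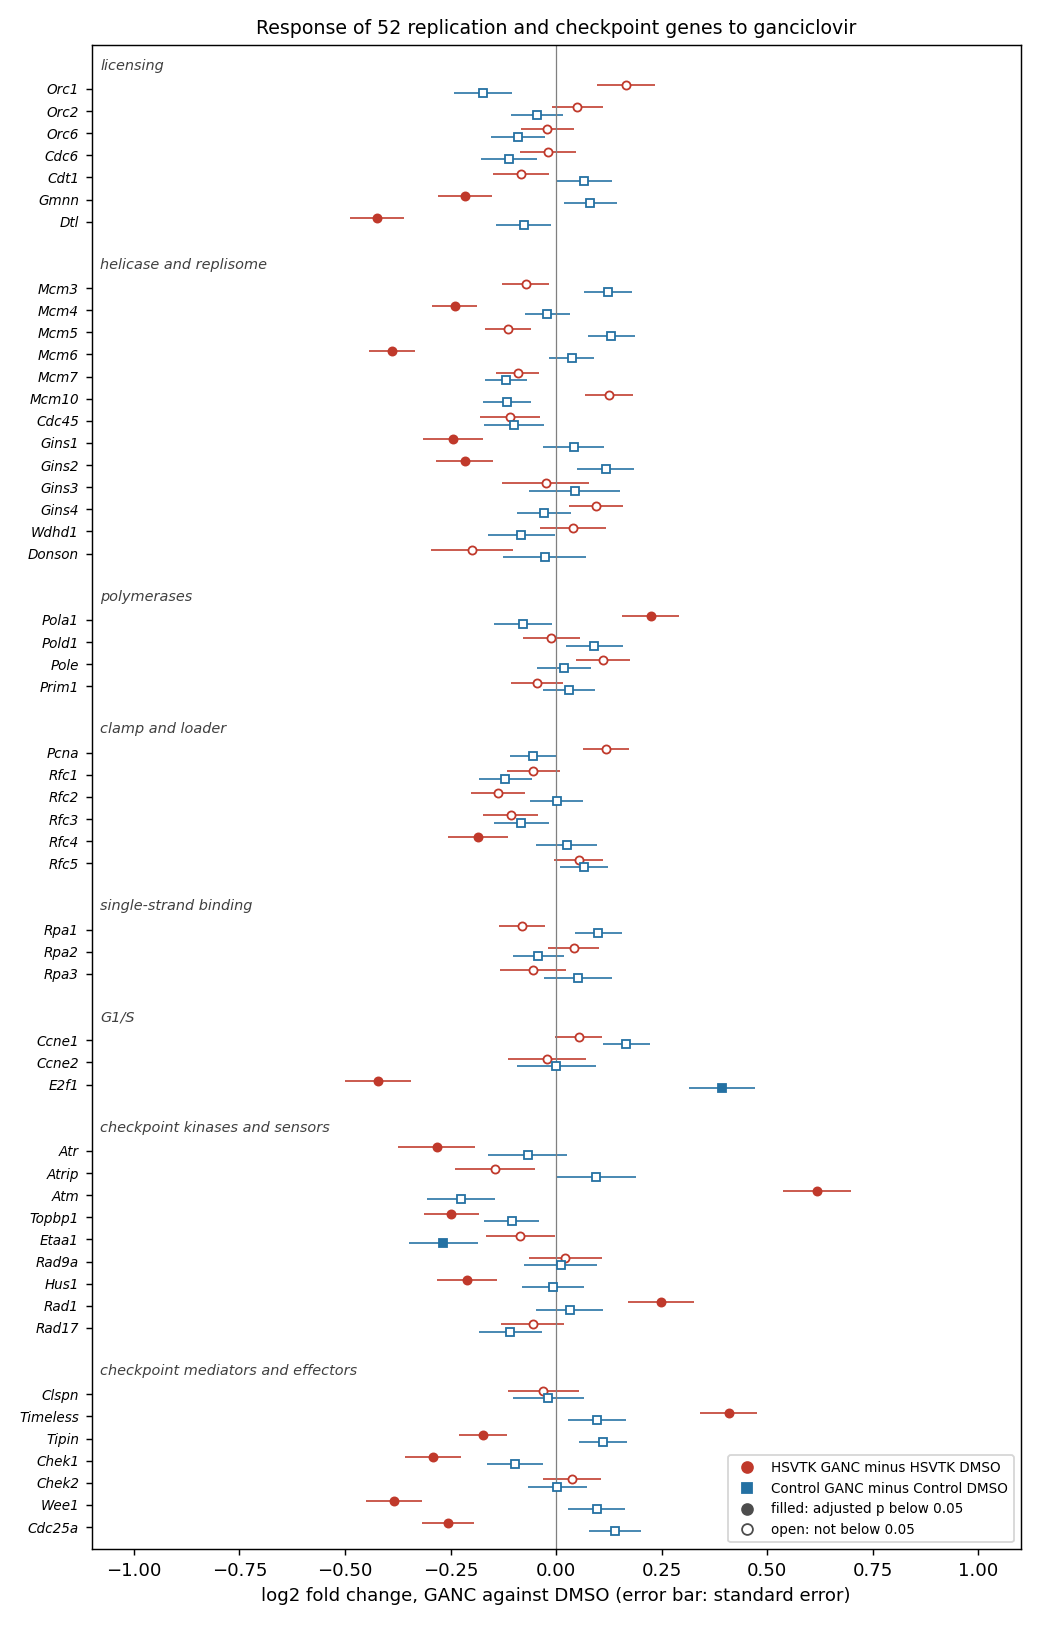
Log2 fold change of each of the 52 genes for GANC against DMSO in HSVTK cells (red circles) and in Control cells (blue squares), ordered by role, with the standard error as bar. Filled symbols have an adjusted p below 0.05: 19 in HSVTK cells and 2 in Control cells, with E2f1 filled on opposite sides of 0.

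HSVTK DMSO was the group that stood furthest from the others for many of these genes. For 22 of the 52 (42.3%) both HSVTK DMSO libraries lay above all other 6, which held for 15.3% of all tested genes (19.6% of the abundant ones). For 6 genes (11.5%), Orc1, Mcm10, Pole, Pcna, Atm and Timeless, they lay below all others, beside 14.4% of all tested genes (18.7% of the abundant ones). The summed level of the 52 was 8629 and 8540 CPM in HSVTK DMSO, against 7902 and 7925 in Control DMSO, 7879 and 8076 in Control GANC and 8049 and 8126 in HSVTK GANC. The HSVTK DMSO libraries enter the drug comparison in HSVTK cells and the comparison of the cell groups under DMSO, so both sets of values are given side by side for each role.

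**Figure D2:**
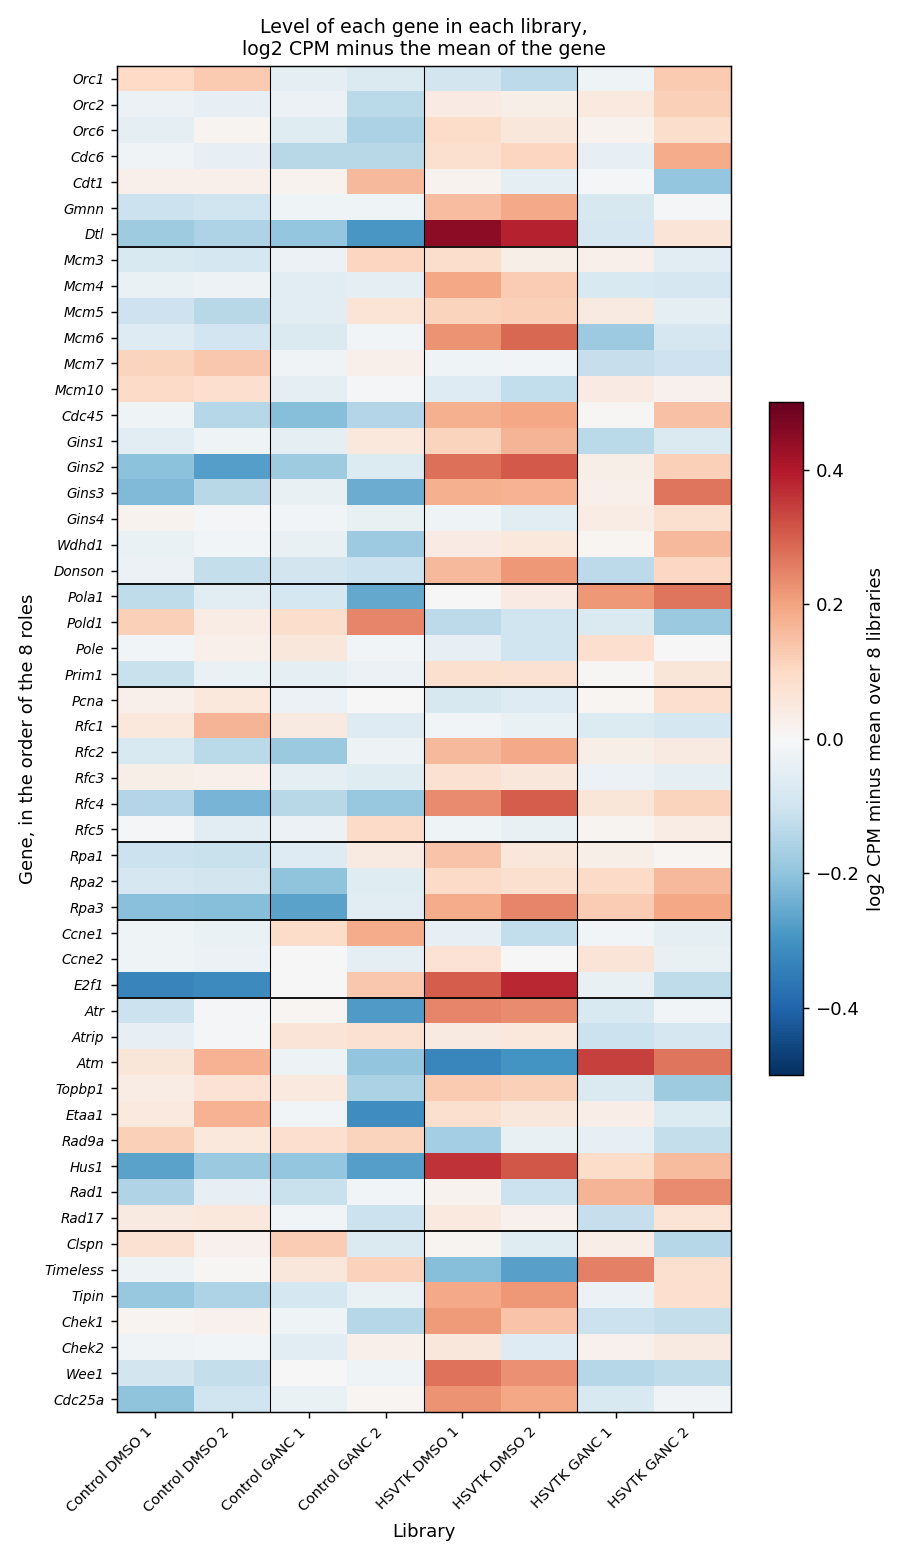
Level of each of the 52 genes (rows, by role) in each of the 8 libraries (columns), as log2 CPM minus the mean of that gene over the libraries, with red above and blue below the mean. In 22 rows both HSVTK DMSO columns hold the highest values, and the row of Atm is blue there and red in HSVTK GANC.

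Many replication genes carry sites for E2F factors and for the CCAAT-binding factor NF-Y close to their start. Promoters are shown for 3 genes that fell in HSVTK cells with ganciclovir and hold E2F letters (Mcm6, Dtl and Cdc25a) and for 2 that rose (Pola1 and Atm), because genes with opposite responses can then be read beside each other. Each is the 250 bases before the start in the RefSeq table of GRCm38.p6, 5′ to 3′ on the strand of the gene, with matches in capitals. The letters searched on both strands were TTTCCCGC, TTTGGCGC, TTTCGCGC and TTTGCCGC for E2F, CCAAT for NF-Y and TTTGAA for the cell cycle element CHR, which none of the 5 windows holds. In Mcm6, 2 of its 3 E2F matches overlap.
Mcm6: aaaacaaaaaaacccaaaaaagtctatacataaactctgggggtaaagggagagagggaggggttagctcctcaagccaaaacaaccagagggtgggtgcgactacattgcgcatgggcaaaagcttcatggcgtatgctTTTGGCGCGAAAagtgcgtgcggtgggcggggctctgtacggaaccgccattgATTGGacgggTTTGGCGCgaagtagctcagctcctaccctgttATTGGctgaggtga
Dtl: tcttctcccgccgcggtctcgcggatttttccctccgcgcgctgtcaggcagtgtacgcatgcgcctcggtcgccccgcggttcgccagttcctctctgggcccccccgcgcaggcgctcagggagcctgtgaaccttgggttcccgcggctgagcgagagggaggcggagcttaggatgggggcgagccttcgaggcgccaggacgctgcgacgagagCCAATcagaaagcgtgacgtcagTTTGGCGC
Cdc25a: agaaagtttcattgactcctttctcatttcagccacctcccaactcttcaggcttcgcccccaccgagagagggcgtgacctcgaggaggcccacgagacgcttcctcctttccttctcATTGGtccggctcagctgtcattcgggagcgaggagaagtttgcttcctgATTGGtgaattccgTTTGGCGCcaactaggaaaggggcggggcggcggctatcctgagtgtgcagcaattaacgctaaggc
Pola1: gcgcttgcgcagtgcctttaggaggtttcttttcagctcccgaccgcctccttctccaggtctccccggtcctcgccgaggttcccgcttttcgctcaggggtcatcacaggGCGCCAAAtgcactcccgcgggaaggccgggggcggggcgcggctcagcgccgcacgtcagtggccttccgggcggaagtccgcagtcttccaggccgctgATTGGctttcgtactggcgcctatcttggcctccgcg
Atm: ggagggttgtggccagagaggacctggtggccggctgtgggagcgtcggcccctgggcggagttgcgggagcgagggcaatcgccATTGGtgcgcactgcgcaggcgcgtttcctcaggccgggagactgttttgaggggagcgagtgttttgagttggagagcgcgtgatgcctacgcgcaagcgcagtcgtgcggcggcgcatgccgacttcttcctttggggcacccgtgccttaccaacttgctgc
These windows lie at chr1:128359706-128359955, minus strand, for Mcm6, chr1:191575545-191575794, minus strand, for Dtl, chr9:109875329-109875578, plus strand, for Cdc25a, chrX:93632156-93632405, minus strand, for Pola1 and chr9:53536672-53536921, minus strand, for Atm. The E2F letters occurred in 12 of the 41 genes with an entry (29.3%), against 2.16% of 27025 genes in the table, and CCAAT in 25 of 41 (61.0%), against 37.5%. The CHR letters occurred in 3 of 41 (7.32%), against 18.3%. Among the genes with an entry, E2F letters occurred in 4 of the 9 that fell in HSVTK cells (Dtl, Mcm6, Topbp1 and Cdc25a), in 1 of the 4 that rose (Pola1) and in 7 of the 28 not called. CCAAT occurred in 3 of the 9 that fell (33.3%), in 2 of the 4 that rose and in 20 of the 28 not called (71.4%), and the CHR letters in 1, 0 and 2. For 12 of the 41, Pola1 and Atm among them, the start in the table lies more than 100 bases inside the RefSeq gene, so a window can miss letters before another start.

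Of the 7 licensing genes, 2 fell in HSVTK cells with ganciclovir and 0 rose. The 2 are 28.6% of the 7, where 28.5% of all tested genes were called and 15.2% fell (39.2% and 21.6% of the abundant ones). Dtl (ENSMUSG00000037474), which directs the CUL4 ubiquitin ligase to Cdt1 at replicating DNA, stood at 136 and 139 CPM in the Control DMSO libraries, 135 and 126 in Control GANC, 210.4 and 201 in HSVTK DMSO and 146 and 161 in HSVTK GANC. Both HSVTK DMSO libraries lay above all others, and both HSVTK GANC libraries lay above all 4 Control libraries. With ganciclovir Dtl fell by 0.42 ± 0.06 (adjusted p = 9.94e-06) in HSVTK cells, and its difference in Control cells was -0.08 ± 0.06, adjusted p = 0.537. The responses differed by -0.35 ± 0.09, adjusted p = 0.00512. Gmnn, geminin, the inhibitor of Cdt1, fell by 0.22 ± 0.06 (adjusted p = 0.0104) in HSVTK cells, a call that it lost without HSVTK DMSO 2 or HSVTK GANC 1 (adjusted p = 0.0900 to 0.112). Its difference between the responses was -0.30 ± 0.09, adjusted p = 0.0143. Orc1, the cell-cycle-regulated subunit of the origin recognition complex, was not called in either cell group (0.17 in HSVTK and -0.17 in Control cells), while the difference of the responses was 0.34 ± 0.10, adjusted p = 0.00991, and it lost its call without Control DMSO 2, HSVTK DMSO 2 or HSVTK GANC 2 (adjusted p = 0.0726 to 0.0937). The origin recognition subunits Orc2 and Orc6 and the loaders Cdc6 and Cdt1 lay between -0.08 and 0.05 in HSVTK cells and between -0.11 and 0.07 in Control cells, with no call.

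Between the cell groups under DMSO, Dtl was higher in HSVTK cells by 0.58 ± 0.06, adjusted p = 3.09e-08 and Gmnn by 0.28 ± 0.06, adjusted p = 0.00102, while Orc1 was lower (-0.23 ± 0.07, adjusted p = 0.0111) and lost its call without either Control DMSO library or either HSVTK DMSO library (adjusted p = 0.0546 to 0.126). Under ganciclovir Dtl was higher by 0.24 ± 0.06, adjusted p = 0.00694 and lost its call without Control GANC 2 or HSVTK GANC 2 (adjusted p = 0.0617 to 0.185). Cdc6 (0.21) and Orc2 (0.17) were also higher and Cdt1 lower (-0.19) under ganciclovir. Cdc6 lost its call without Control GANC 1 or HSVTK GANC 2 (adjusted p = 0.0560 to 0.480), Orc2 lost its call without any 1 library except Control GANC 1 (adjusted p = 0.0643 to 0.308) and Cdt1 lost its call without Control GANC 2 or HSVTK GANC 2 (adjusted p = 0.259 to 0.371).

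Of the 13 helicase and replisome genes, 4 fell in HSVTK cells with ganciclovir and 9 were not called. The 4 are 30.8% of the 13, where 28.5% of all tested genes were called and 15.2% fell (39.2% and 21.6% of the abundant ones). Mcm6 (ENSMUSG00000026355), a subunit of the helicase ring, stood at 479 and 469 CPM in the Control DMSO libraries, 476 and 496 in Control GANC, 585 and 612 in HSVTK DMSO and 442 and 472 in HSVTK GANC. Mcm6 fell by 0.39 ± 0.05 (adjusted p = 3.05e-06) in HSVTK cells, and the difference in Control cells was 0.04 ± 0.05, adjusted p = 0.761. Both HSVTK DMSO libraries lay above all others, and the HSVTK GANC libraries overlapped those of Control DMSO. Mcm4 (ENSMUSG00000022673), another ring subunit, stood at 349 and 351 CPM in the Control DMSO libraries, 344 and 346 in Control GANC, 408 and 390.2 in HSVTK DMSO and 338 and 338 in HSVTK GANC. It fell by 0.24 ± 0.05 (adjusted p = 0.00109) in HSVTK cells, with both HSVTK GANC libraries below all others. The remaining ring subunits among the 52, Mcm3, Mcm5 and Mcm7, differed by -0.07, -0.11 and -0.09 in HSVTK cells, none called.

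Gins2 (ENSMUSG00000031821), a subunit of the GINS complex that opens the helicase, stood at 83.7 and 79.8 CPM in the Control DMSO libraries, 85.5 and 92.1 in Control GANC, 117 and 119 in HSVTK DMSO and 98.6 and 105 in HSVTK GANC. The HSVTK libraries lay above the Control libraries under both treatments. Gins2 fell by 0.22 ± 0.07 (adjusted p = 0.0148) in HSVTK cells and lost its call without either HSVTK DMSO library or HSVTK GANC 1 (adjusted p = 0.0623 to 0.129). An exon of Gse1 overlaps Gins2 on the opposite strand by 2758 bases, and whether counting used strand is not given, so reads of the pair cannot be told apart. Its GINS partner Gins1 fell by 0.24 ± 0.07 (adjusted p = 0.0112) and lost its call without HSVTK DMSO 2 or HSVTK GANC 1 (adjusted p = 0.0895 to 0.123), while Gins3 (-0.02) and Gins4 (0.09) were not called. Cdc45, the helicase activator that travels with GINS, the initiation factor Mcm10, the polymerase alpha tether Wdhd1 and the fork-protection factor Donson lay between -0.20 and 0.13 in HSVTK cells. None of these was called by the main edgeR fit. Mcm10 was called with limma on log2(FPKM + 1) (adjusted p = 0.0408) and with scaling by library size (adjusted p = 0.0313).

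In Control cells the main edgeR fit, DESeq2 and limma called 0 of the 13, and 3 had an unadjusted edgeR p under 0.05 (Mcm3, Mcm5 and Mcm7). The responses differed for 6 of the 13: Mcm6 by -0.42 ± 0.08, adjusted p = 0.000119, Gins2 by -0.33 ± 0.09, adjusted p = 0.00956, Gins1 by -0.29 ± 0.10, adjusted p = 0.0387, Mcm5 by -0.25 ± 0.08, adjusted p = 0.0193, Mcm4 by -0.22 ± 0.08, adjusted p = 0.0328 and, in the positive direction, Mcm10 by 0.24 ± 0.08, adjusted p = 0.0260. The 6 are 46.2% of the 13, beside 25.6% of all tested genes (36.1% of the abundant ones). Of the 6, Mcm6 alone kept its call without any 1 library. Gins2 lost its call without Control DMSO 2 (adjusted p = 0.0540), Mcm5 lost its call without Control DMSO 2, either HSVTK DMSO library or HSVTK GANC 2 (adjusted p = 0.0601 to 0.0793), Mcm4 lost its call without either Control DMSO library or either HSVTK DMSO library (adjusted p = 0.0576 to 0.157), Gins1 lost its call without any 1 library except Control GANC 1 or HSVTK GANC 2 (adjusted p = 0.0630 to 0.142) and Mcm10 lost its call without any 1 library except Control GANC 2 (adjusted p = 0.0577 to 0.207).

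Under DMSO, 7 of the 13 were higher in HSVTK than in Control cells: Gins2 by 0.53 ± 0.07, adjusted p = 3.57e-07, Mcm6 by 0.34 ± 0.05, adjusted p = 1.39e-05, Mcm5 by 0.24 ± 0.05, adjusted p = 0.00114, and Gins3 (0.36), Cdc45 (0.27), Donson (0.26) and Mcm4 (0.19). Donson is uncertain, since its exons overlap those of Son, which held 84304 counts over the 8 libraries against 6524, and on the same strand those of Atp5o with 7022. Mcm10 (-0.18) and Mcm7 (-0.14) were lower. Of the 13, 53.8% were higher and 15.4% lower, against 16.4% and 17.3% of all tested genes (22% and 25.5% of the abundant ones). Gins2, Mcm6 and Mcm5 kept their calls without any 1 library. Cdc45 lost its call without Control DMSO 2 (adjusted p = 0.107), Gins3 lost its call without Control DMSO 1 or HSVTK DMSO 1 (adjusted p = 0.0510 to 0.0901), Donson lost its call without either Control DMSO library or either HSVTK DMSO library (adjusted p = 0.0762 to 0.211), Mcm4 lost its call without either Control DMSO library or HSVTK DMSO 1 (adjusted p = 0.0570 to 0.130), Mcm10 lost its call without either Control DMSO library or either HSVTK DMSO library (adjusted p = 0.0605 to 0.192) and Mcm7 lost its call without either Control DMSO library or either HSVTK DMSO library (adjusted p = 0.146 to 0.241). Under ganciclovir Cdc45 (0.26), Gins3 (0.29) and Gins2 (0.20) were higher. All of these calls were lost in at least 1 leave-out: Cdc45 lost its call without Control GANC 1 or HSVTK GANC 2 (adjusted p = 0.0683 to 0.180), Gins3 lost its call without any 1 library except Control GANC 1 or HSVTK GANC 1 (adjusted p = 0.0625 to 0.482) and Gins2 lost its call without any 1 library except Control GANC 2 or HSVTK GANC 1 (adjusted p = 0.0704 to 0.266).

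Among the polymerase genes, Pola1 rose in HSVTK cells and Pold1, Pole and Prim1 were not called. Pola1 (ENSMUSG00000006678), the catalytic subunit of polymerase alpha that starts each strand with primase, stood at 92.9 and 97.7 CPM in the Control DMSO libraries, 95.4 and 85.1 in Control GANC, 101 and 104 in HSVTK DMSO and 118 and 122 in HSVTK GANC. Both HSVTK GANC libraries lay above all other libraries. It rose by 0.22 ± 0.07 (adjusted p = 0.0133) in HSVTK cells and lost its call without either HSVTK DMSO library or HSVTK GANC 2 (adjusted p = 0.0760 to 0.161). The response differed from that in Control cells by 0.30 ± 0.10, adjusted p = 0.0207, and it lost its call without Control DMSO 2, Control GANC 2, either HSVTK DMSO library or HSVTK GANC 2 (adjusted p = 0.0716 to 0.149). Under ganciclovir Pola1 was higher in HSVTK than in Control cells by 0.41 ± 0.07, adjusted p = 3.52e-05, a call kept without any 1 library.

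Pold1 (ENSMUSG00000038644), the catalytic subunit of the lagging-strand polymerase delta, stood at 127 and 119.7 CPM in the Control DMSO libraries, 124 and 138 in Control GANC, 107 and 109 in HSVTK DMSO and 111 and 103 in HSVTK GANC. All 4 HSVTK libraries lay below all 4 Control libraries. It was lower in HSVTK cells by -0.30 ± 0.07 on the log2 scale under ganciclovir (adjusted p = 0.00152) and by -0.19 ± 0.07 under DMSO (adjusted p = 0.0270), where it lost its call without either Control DMSO library or either HSVTK DMSO library (adjusted p = 0.0641 to 0.252). With limma on log2(FPKM + 1) neither was called (adjusted p = 0.0788 under ganciclovir and 0.174 under DMSO). The leading-strand polymerase gene Pole and the primase gene Prim1 differed by 0.11 and -0.04 in HSVTK cells with ganciclovir. In the main edgeR fit neither was called in any of the 5 comparisons, while DESeq2 (adjusted p = 0.0485) and limma on log2(FPKM + 1) (adjusted p = 0.0426) called Prim1 higher in HSVTK cells under DMSO.

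Of the sliding clamp and its loader, 1 of 6 genes fell in HSVTK cells with ganciclovir. That is 16.7%, against 15.2% of all tested genes (21.6% of the abundant ones). Rfc4 (ENSMUSG00000022881), a small subunit of the RFC loader, stood at 61.8 and 58.2 CPM in the Control DMSO libraries, 62.2 and 59.9 in Control GANC, 80.5 and 84.4 in HSVTK DMSO and 71.2 and 73.8 in HSVTK GANC. All 4 HSVTK libraries lay above all 4 Control libraries, with HSVTK DMSO highest. Rfc4 fell by 0.18 ± 0.07 (adjusted p = 0.0499) in HSVTK cells, close to the threshold, and lost its call without any 1 library except Control GANC 1 or Control GANC 2 (adjusted p = 0.0622 to 0.288). Between the cell groups it was higher in HSVTK cells by 0.46 ± 0.07, adjusted p = 9.02e-06 under DMSO, kept without any 1 library, and by 0.25 ± 0.07, adjusted p = 0.0101 under ganciclovir, where it lost its call without Control GANC 2 or HSVTK GANC 2 (adjusted p = 0.0581 to 0.102). The drug response of Rfc4 was not shown to differ from that in Control cells (-0.21, adjusted p = 0.131). An exon of the more abundant Eif4a2 overlaps Rfc4 by 186 bases on the opposite strand, so some of its counts may belong to that gene. Rfc2 was higher in HSVTK cells under DMSO by 0.28 ± 0.06, adjusted p = 0.000885, kept without any 1 library.

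The large loader subunit Rfc1 and the small subunits Rfc3 and Rfc5 were called by the main edgeR fit in none of the 5 comparisons. Pcna, the clamp itself, was not called by that fit either, at 0.12 ± 0.06 in HSVTK cells with ganciclovir and -0.11 ± 0.06 between the cell groups under DMSO. With only the 4 libraries compared, Pcna (adjusted p = 0.0219) and Rfc1 (adjusted p = 0.0184) were lower in HSVTK cells under DMSO, and with scaling by library size Pcna was higher with ganciclovir in HSVTK cells (adjusted p = 0.0365). Its pseudogene Pcna-ps2 held 3158 to 3960 counts per library against 8883 to 10449 for Pcna, so the Pcna values are uncertain where reads match both.

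Of the 3 RPA genes, whose products coat single-stranded DNA at forks, the main edgeR fit, DESeq2 and limma called 0 with ganciclovir in HSVTK and 0 in Control cells, and 0 had an unadjusted edgeR p under 0.05. Rpa1 (ENSMUSG00000000751), the large subunit, stood at 382 and 380.0 CPM in the Control DMSO libraries, 393 and 424 in Control GANC, 453 and 427 in HSVTK DMSO and 419 and 414 in HSVTK GANC. Both HSVTK DMSO libraries lay above all others, and the Control GANC libraries overlapped those of HSVTK GANC. All 3 were higher in HSVTK than in Control cells under DMSO: Rpa3 by 0.43 ± 0.08, adjusted p = 0.000109, Rpa1 by 0.21 ± 0.06, adjusted p = 0.00389 and Rpa2 by 0.18 ± 0.06, adjusted p = 0.0244. Of all tested genes 16.4% were higher there (22% of the abundant ones). Rpa3 kept its call without any 1 library, Rpa1 lost its call without HSVTK DMSO 1 (adjusted p = 0.114) and Rpa2 lost its call without either Control DMSO library or either HSVTK DMSO library (adjusted p = 0.117 to 0.142). Under ganciclovir Rpa3 (0.32 ± 0.08, adjusted p = 0.00335) and Rpa2 (0.26 ± 0.06, adjusted p = 0.00178) were higher. Rpa2 kept this call without any 1 library, and Rpa3 lost its call without Control GANC 1 or HSVTK GANC 2 (adjusted p = 0.0604 to 0.107).

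E2f1 (ENSMUSG00000027490), the transcription factor that drives S-phase genes once RB is phosphorylated, was called in opposite directions in the 2 cell groups with ganciclovir. It stood at 40.6 and 40.9 CPM in the Control DMSO libraries, 51.0 and 56.0 in Control GANC, 62.8 and 66.2 in HSVTK DMSO and 49.7 and 46.7 in HSVTK GANC. No groups overlapped, with Control DMSO lowest, then HSVTK GANC, then Control GANC and HSVTK DMSO highest. With ganciclovir E2f1 fell by 0.42 ± 0.08 (adjusted p = 0.000134) in HSVTK cells and rose by 0.39 ± 0.08 (adjusted p = 0.00228) in Control cells. The difference of these responses was -0.81 ± 0.11, adjusted p = 2.6e-06. The call in Control cells was lost with limma on log2(FPKM + 1) (adjusted p = 0.0863) and log2(FPKM + 0.1) (adjusted p = 0.0683). Under DMSO it was higher in HSVTK than in Control cells by 0.66 ± 0.08, adjusted p = 1.08e-07, and under ganciclovir the difference was -0.15 ± 0.08, adjusted p = 0.163. These 4 calls held without any 1 library.

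Cyclin E1 and cyclin E2, which activate CDK2 at the start of S phase, were not called by the main edgeR fit with ganciclovir. Ccne1 differed by 0.05 ± 0.06 in HSVTK and 0.17 ± 0.06 in Control cells, and was lower in HSVTK cells under ganciclovir (-0.17 ± 0.06, adjusted p = 0.0254), where it lost its call without Control GANC 2 or HSVTK GANC 2 (adjusted p = 0.0990 to 0.138). DESeq2 (adjusted p = 0.0364) and scaling by library size (adjusted p = 0.0426) called Ccne1 higher in Control cells with ganciclovir. Ccne2 was called in no comparison, with the largest difference at 0.06.

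**Figure D3:**
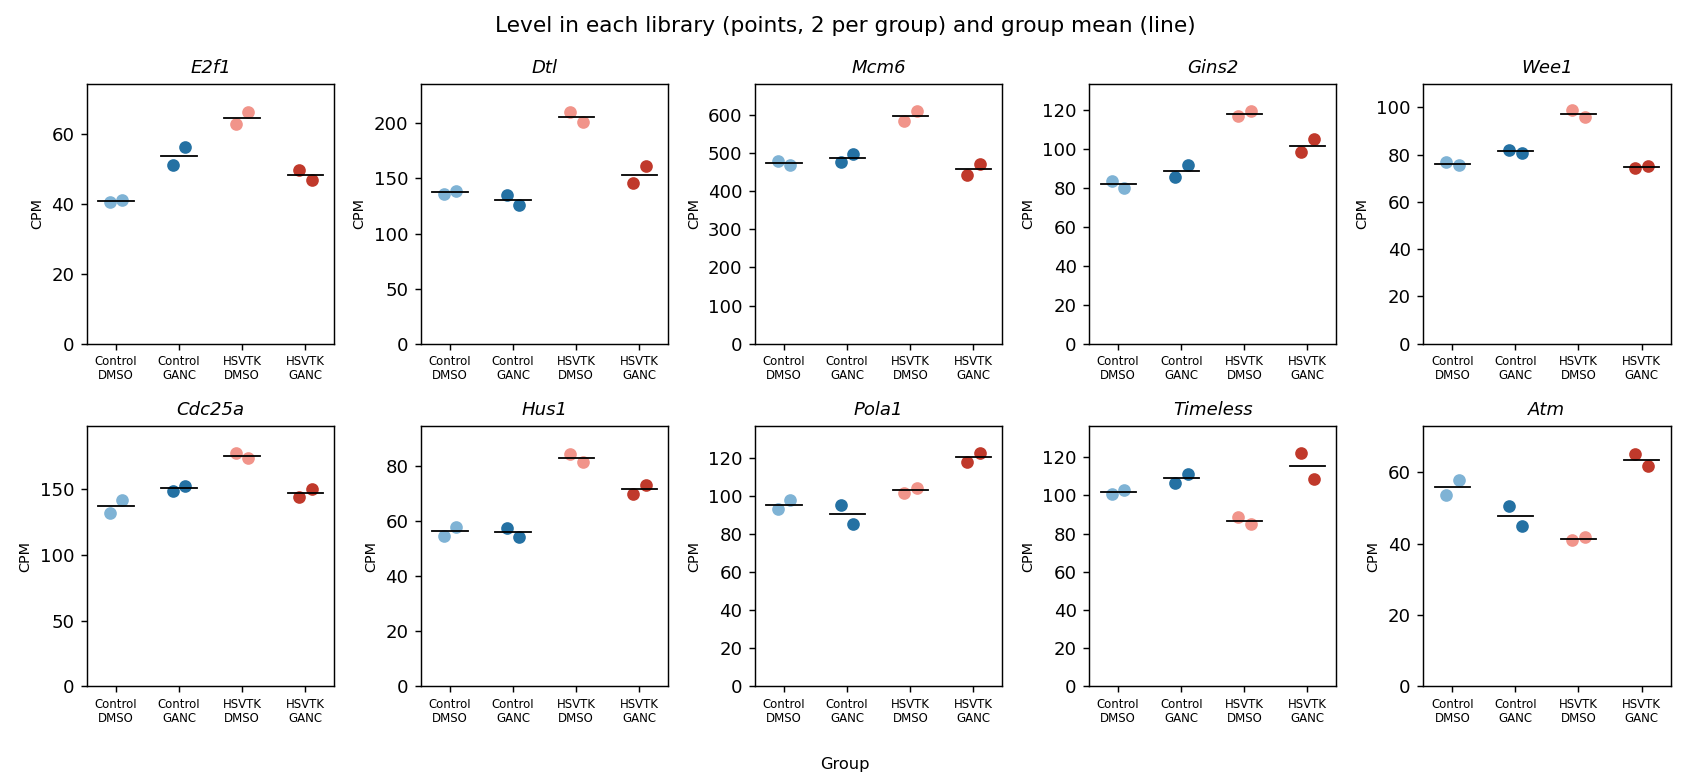
CPM in each of the 8 libraries for 10 of the genes, with 1 panel per gene, 2 points per group and the group mean as a line, on axes that start at 0. E2f1, Dtl, Mcm6, Gins2, Wee1, Cdc25a and Hus1 are highest in HSVTK DMSO, Timeless and Atm are lowest there, and Pola1 is highest in HSVTK GANC.

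The checkpoint kinases and sensors moved in both directions in HSVTK cells, with 2 of 9 higher and 3 lower. These shares of 22.2% and 33.3% stand against 13.3% and 15.2% of all tested genes (17.5% and 21.6% of the abundant ones). The response differed from that in Control cells for 1 of the 9 (11.1%), Atm, beside 25.6% of all tested genes (36.1% of the abundant ones). Atm (ENSMUSG00000034218), the kinase that responds to double-strand breaks, had the largest change of the 52 with ganciclovir in HSVTK cells. It stood at 53.6 and 57.9 CPM in the Control DMSO libraries, 50.5 and 44.8 in Control GANC, 40.9 and 41.7 in HSVTK DMSO and 65.1 and 61.8 in HSVTK GANC. The HSVTK DMSO libraries were the lowest of all and the HSVTK GANC libraries the highest. Atm rose by 0.62 ± 0.08 (adjusted p = 9.78e-07) in HSVTK cells, which is 1.54-fold, and the difference in Control cells was -0.23 ± 0.08, adjusted p = 0.0801. The responses differed by 0.84 ± 0.11, adjusted p = 2.1e-06. Between the cell groups it was lower in HSVTK cells under DMSO (-0.43 ± 0.08, adjusted p = 9.83e-05) and higher under ganciclovir (0.41 ± 0.08, adjusted p = 0.000239). The 4 calls held without any 1 library.

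Atr, the kinase recruited by RPA-coated DNA, fell by 0.28 ± 0.09 (adjusted p = 0.0196) in HSVTK cells, and its activator Topbp1 fell by 0.25 ± 0.06 (adjusted p = 0.00449). Atr lost its call without either HSVTK DMSO library or HSVTK GANC 1 (adjusted p = 0.0832 to 0.113), and Topbp1 lost its call without HSVTK GANC 2 (adjusted p = 0.0587). The ATR partner Atrip (-0.14) and the RPA-bound ATR activator Etaa1 (-0.08) were not called. The responses of Atr and Topbp1 were not shown to differ from those in Control cells (-0.22 ± 0.13, adjusted p = 0.239, and -0.14 ± 0.09, adjusted p = 0.274). Atr was higher in HSVTK cells under DMSO (0.30 ± 0.09, adjusted p = 0.0118), and lost its call without Control DMSO 1 or either HSVTK DMSO library (adjusted p = 0.0585 to 0.122).

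Etaa1 (ENSMUSG00000016984) stood at 77.0 and 83.9 CPM in the Control DMSO libraries, 73.6 and 59.9 in Control GANC, 78.5 and 77.4 in HSVTK DMSO and 76.1 and 71.0 in HSVTK GANC. The lower Control GANC library lay below all others, and the other lay within the range of HSVTK GANC. Etaa1 fell in Control cells by 0.27 ± 0.08 (adjusted p = 0.0405) and lost its call without either Control DMSO library, Control GANC 2 or either HSVTK DMSO library (adjusted p = 0.0704 to 0.474).

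Rad9a, Hus1 and Rad1 form the checkpoint clamp that Rad17 loads at DNA junctions, and its subunits moved in different directions in HSVTK cells. The responses of Hus1 and Rad1 were not shown to differ from those in Control cells (-0.20, adjusted p = 0.153, and 0.22, adjusted p = 0.163). Hus1 (ENSMUSG00000020413) stood at 54.5 and 57.7 CPM in the Control DMSO libraries, 57.4 and 54.2 in Control GANC, 84.2 and 81.2 in HSVTK DMSO and 69.9 and 73.1 in HSVTK GANC. All 4 HSVTK libraries lay above all 4 Control libraries. Hus1 fell by 0.21 ± 0.07 (adjusted p = 0.0272) with ganciclovir and lost its call without either HSVTK DMSO library or HSVTK GANC 1 (adjusted p = 0.0811 to 0.173). Rad1 rose by 0.25 ± 0.08 (adjusted p = 0.0174) and lost its call without HSVTK DMSO 2 or HSVTK GANC 2 (adjusted p = 0.143 to 0.262), while Rad9a (0.02) and Rad17 (-0.06) were not called in any comparison. Hus1 was higher in HSVTK than in Control cells by 0.56 ± 0.07, adjusted p = 5.01e-07 under DMSO and 0.36 ± 0.07, adjusted p = 0.000439 under ganciclovir, kept without any 1 library. Rad1 was higher under ganciclovir (0.27 ± 0.08, adjusted p = 0.0121), and lost its call without Control GANC 1 or HSVTK GANC 2 (adjusted p = 0.119 to 0.125).

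The mediators and effectors of the checkpoint had 4 of 7 genes lower and 1 higher in HSVTK cells. That is 57.1% and 14.3% of the 7, against 15.2% and 13.3% of all tested genes (21.6% and 17.5% of the abundant ones). Chek1 (ENSMUSG00000032113), the kinase activated by ATR, stood at 97.2 and 97.8 CPM in the Control DMSO libraries, 94.9 and 87.3 in Control GANC, 111 and 106 in HSVTK DMSO and 89.3 and 88.7 in HSVTK GANC. Both HSVTK DMSO libraries lay above all others. Chek1 fell by 0.29 ± 0.07 (adjusted p = 0.00132) in HSVTK cells, and the response was not shown to differ from that in Control cells (-0.19 ± 0.09, adjusted p = 0.135). Wee1 (ENSMUSG00000031016), the kinase that inhibits CDK1 and CDK2, stood at 77.0 and 75.6 CPM in the Control DMSO libraries, 82.2 and 80.9 in Control GANC, 98.9 and 96.0 in HSVTK DMSO and 74.2 and 75.1 in HSVTK GANC. It fell by 0.38 ± 0.07 (adjusted p = 6.62e-05) in HSVTK cells, with HSVTK DMSO above and HSVTK GANC below all other libraries. The responses differed by -0.48 ± 0.09, adjusted p = 0.000339.

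Cdc25a (ENSMUSG00000032477), the phosphatase that removes the marks set by WEE1 and that CHK1 targets for destruction, stood at 132 and 142 CPM in the Control DMSO libraries, 149 and 153 in Control GANC, 178 and 174 in HSVTK DMSO and 144 and 150.2 in HSVTK GANC. Control DMSO was the lowest group and HSVTK DMSO the highest. It fell by 0.26 ± 0.06 (adjusted p = 0.00214) in HSVTK cells, and the responses differed by -0.39 ± 0.09, adjusted p = 0.00113. Cdc25a and Wee1, which act against each other on CDKs, thus fell together, and both were higher in HSVTK than in Control cells under DMSO (Cdc25a 0.36 ± 0.06, adjusted p = 3.31e-05, Wee1 0.35 ± 0.07, adjusted p = 0.000118). These calls of Wee1 and Cdc25a, and the drop of Chek1, held without any 1 library.

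Timeless and Tipin, partners in the complex that steadies forks and passes the signal from ATR to CHK1, moved in opposite directions. Timeless (ENSMUSG00000039994) stood at 101 and 103 CPM in the Control DMSO libraries, 107 and 111 in Control GANC, 88.6 and 85.0 in HSVTK DMSO and 122 and 108 in HSVTK GANC. Tipin (ENSMUSG00000032397) stood at 258 and 265 CPM in the Control DMSO libraries, 277 and 288 in Control GANC, 335 and 343 in HSVTK DMSO and 289 and 313 in HSVTK GANC. The HSVTK DMSO libraries were the lowest of all for Timeless and the highest for Tipin. Timeless rose by 0.41 ± 0.07 (adjusted p = 4.22e-05) and Tipin fell by 0.17 ± 0.06 (adjusted p = 0.0225) in HSVTK cells. Tipin lost its call without either HSVTK DMSO library or HSVTK GANC 1 (adjusted p = 0.0857 to 0.209), whereas Timeless kept its call without any 1 library.

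Both responses differed from those in Control cells, for Timeless by 0.31 ± 0.10, adjusted p = 0.0171 and for Tipin by -0.28 ± 0.08, adjusted p = 0.00965. Timeless lost its call without any 1 library except Control GANC 2 or HSVTK GANC 2 (adjusted p = 0.0524 to 0.151), and Tipin lost its call without Control DMSO 1 or HSVTK DMSO 2 (adjusted p = 0.0560 to 0.0561). Under DMSO Tipin was higher in HSVTK cells (0.37 ± 0.06, adjusted p = 6.59e-06, kept without any 1 library) and Timeless lower (-0.23 ± 0.07, adjusted p = 0.00949), where Timeless lost its call without either Control DMSO library or HSVTK DMSO 2 (adjusted p = 0.0501 to 0.133). The adaptor Clspn, which brings CHK1 to ATR, and Chek2, the kinase downstream of ATM, were called in none of the 5 comparisons.

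The cell groups themselves differed in many of the 52 genes. Under DMSO, 20 were higher and 6 lower in HSVTK cells, 26 of 52 or 50%, where 33.7% of all tested genes were called (47.5% of the abundant ones). By direction 38.5% of the 52 were higher against 16.4% of all tested genes (22% of the abundant ones), and 11.5% were lower against 17.3% (25.5%). The median over the 52 was 0.10 against 0.00 over all tested genes. Under ganciclovir 13 were higher and 3 lower, 16 of 52 or 30.8%, where 26.1% of all tested genes were called (34.9% of the abundant ones). By direction 25% of the 52 were higher against 11.1% (14% of the abundant ones), and 5.77% lower against 14.9% (21%). Scaling by library size alone gave 24 higher and 4 lower under DMSO and 16 higher and 1 lower under ganciclovir. Under DMSO the count was 16 without Control DMSO 1 or HSVTK DMSO 1 and 17 without Control DMSO 2. Under ganciclovir it was 5 without HSVTK GANC 2, 10 with only the 4 libraries compared and 8 with limma on log2(FPKM + 1), where Orc2, Cdc6, Cdt1, Dtl, Gins3, Pold1, Ccne1 and Rad1 lost their calls (adjusted p = 0.0551 to 0.351). Under DMSO the same fit lost Orc1, Mcm7, Gins3, Donson, Pold1, Rpa2, Atr and Timeless (adjusted p = 0.0507 to 0.253) and gained Gins1 and Prim1. It called 11.1% of 32857 genes under DMSO and 6.96% under ganciclovir.

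**Figure D4:**
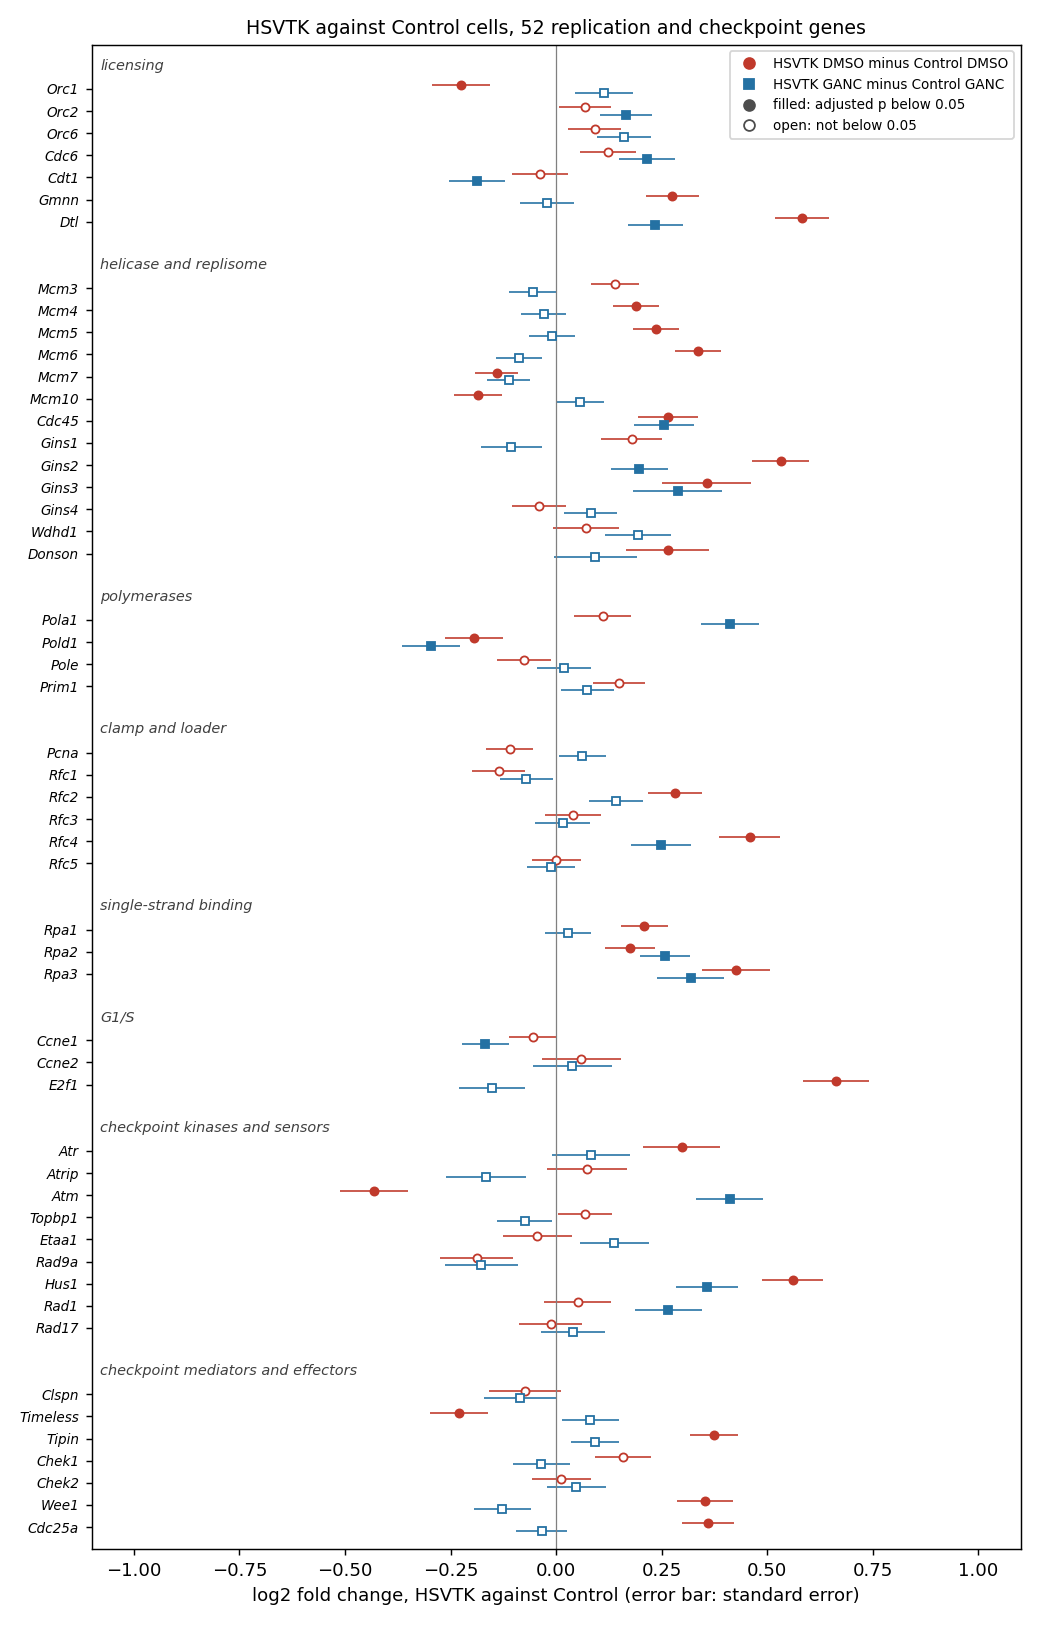
Log2 fold change of each of the 52 genes for HSVTK against Control cells under DMSO (red circles) and under GANC (blue squares), ordered by role, with the standard error as bar and filled symbols at an adjusted p below 0.05. Atm is filled on opposite sides of 0, and E2f1, Mcm6, Wee1 and Cdc25a are filled under DMSO only.

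Replication genes outside the 52 gave the wider setting. Of 57 others, such as origin-firing factors, further polymerase subunits and chromatin assembly factors, 14 fell and 4 rose in HSVTK cells with ganciclovir (31.6%), or 8 in all with limma on log2(FPKM + 1). Of all tested genes 28.5% were called (39.2% of the abundant ones). Falls made up 24.6% of the 57 against 15.2% (21.6%), and rises 7.02% against 13.3% (17.5%). The lowest adjusted p among those that fell were for Chaf1b, which deposits histones behind the fork (-0.48 ± 0.07, adjusted p = 2.39e-06), the RB relative Rbl1 (-0.64 ± 0.10, adjusted p = 1.12e-05) and the polymerase delta subunit Pold2 (-0.42 ± 0.07, adjusted p = 4.53e-05). Those that rose included Chtf18, part of an alternative clamp loader (0.46 ± 0.07, adjusted p = 1.01e-05), the helicase Recql4 (0.52 ± 0.09, adjusted p = 8.39e-05) and the fork repair factor Tonsl (0.26 ± 0.09, adjusted p = 0.0233), which lost its call without HSVTK DMSO 2 or HSVTK GANC 1 (adjusted p = 0.232 to 0.321) and with limma on log2(FPKM + 1) (adjusted p = 0.103).

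In Control cells 5 of the 57 rose and 5 fell, and these 10 calls shrank to 1 to 5 without Control DMSO 1, Control DMSO 2, Control GANC 2, HSVTK DMSO 1 or HSVTK DMSO 2. The 10 are 17.5% of the 57, beside 8.08% of all tested genes (14.5% of the abundant ones). The ligase Lig1 (0.27), Uhrf1 (0.26) and the maintenance methyltransferase Dnmt1 (0.24) rose. The timing factor Rif1 (-0.42), the fork remodeller Hltf (-0.32) and the kinase activator Dbf4 (-0.20) fell. Limma on log2(FPKM + 1) called 0 of the 57 there. Rif1 kept its call without any 1 library but not with DESeq2 (adjusted p = 0.0715), while Lig1 lost its call without Control DMSO 1 or Control DMSO 2 (adjusted p = 0.0666 to 0.0674), Uhrf1 lost its call without Control DMSO 2 (adjusted p = 0.103), Dnmt1 lost its call without either Control DMSO library or Control GANC 2 (adjusted p = 0.0842 to 0.117), Hltf lost its call without Control DMSO 2 or Control GANC 2 (adjusted p = 0.261 to 0.298) and Dbf4 lost its call without either Control DMSO library, Control GANC 2 or either HSVTK DMSO library (adjusted p = 0.0800 to 0.340). The responses differed for 17 of the 57, 9 negative and 8 positive (11 in all without HSVTK DMSO 1 or 2), and called differences ran from -0.79 for Rbl1 to 0.74 for Rb1, the retinoblastoma gene, named here as the ends of the range. The 17 are 29.8% of the 57, beside 25.6% of all tested genes (36.1% of the abundant ones). Rb1 lost its call without Control DMSO 2, Control GANC 1, either HSVTK DMSO library or HSVTK GANC 1. Limma on log2(FPKM + 1) did not call Rb1 either (adjusted p = 0.195). The lowest adjusted p were those of Chaf1b (-0.64), Pold2 (-0.62) and the firing factor Ticrr (-0.58) among the negative and Recql4 (0.64), Chtf18 (0.39) and Rif1 (0.42) among the positive. Of these, Rif1 lost its call without HSVTK DMSO 2 (adjusted p = 0.0616) and with DESeq2 (adjusted p = 0.155), and Chtf18 lost it with limma on log2(FPKM + 1) (adjusted p = 0.0576).

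Between the cell groups 17 of the 57 were higher and 11 lower in HSVTK cells under DMSO, and 7 higher and 6 lower under ganciclovir. The called shares were 49.1% and 22.8% of the 57, beside 33.7% and 26.1% of all tested genes (47.5% and 34.9% of the abundant ones). Mcm2, the subunit that completes the helicase ring and is not among the 52, was lower in HSVTK cells by -0.81 ± 0.06 under DMSO and -0.99 ± 0.06 under ganciclovir, and was singled out after its values were seen. By gene order Mcm2 and the polymerase epsilon subunit Pole4 (-1.09 ± 0.07 and -0.80 ± 0.07) lie in the stretch of chromosome 6 from Scrn1 to Tmf1, where 159 of 245 tested genes were lower in HSVTK cells under DMSO and 157 under ganciclovir, and 0 of the 52 lie in it. The 159 and 157 are 64.9% and 64.1% of the 245, against 17.3% and 14.9% of all tested genes.

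Genes of the later G2 and M phases were read beside the 52. Of 18 such genes, among them cyclin B, CDK1 and the Aurora kinases, 11 fell in HSVTK cells with ganciclovir (7 without HSVTK DMSO 1, and 4 with limma on log2(FPKM + 1)) and 2 in Control cells. That is 61.1% and 11.1% of the 18, where 15.2% and 3.35% of all tested genes fell (21.6% and 6.4% of the abundant ones). The responses of the 2 cell groups differed for 6 of the 18, or 2 with limma on log2(FPKM + 1). The 6 are 33.3%, beside 25.6% of all tested genes (36.1% of the abundant ones). All 6 were negative, where 14% of all tested genes were (19.6% of the abundant ones). The summed level of the 18 was 3399 and 3422 CPM in HSVTK GANC and 3854 to 4014 CPM in the other 6 libraries. The summed level of the 52 was also lower in HSVTK GANC than in HSVTK DMSO, but it did not lie below the Control libraries. The part of the G2 and M genes in the changes of the 52 was not tested.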

How the data were processed

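Total RNA of 8 mouse embryonic stem cell libraries was sequenced, and libraries were grouped by the cell group and treatment of their labels. Per the submitters' processing notes the tools were fastp 0.23.2, HISAT2 2.1.0, featureCounts 2.0.1 and DESeq2 1.40.2 with the build GRCm39. How strand and multi-mapping reads were handled, and which annotation was counted, was not given in the sources used here. Raw counts per gene and FPKM values were deposited by the authors. The deposited FPKM were checked to equal the deposited count divided by the deposited gene length (another column of the table) and by the library's counts, in all 456080 values within 1e-05.

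In R 4.3.3, edgeR 4.0.16 fitted the counts and tested them by quasi-likelihood, with TMM scaling, the filterByExpr default by group and 1 mean per group over all 8 libraries, which leaves 4 residual degrees of freedom. Genes varied between replicates with a biological coefficient of variation of 6.31%. P-values were adjusted by the Benjamini-Hochberg method over 17976 genes. Standard errors were obtained as log2 fold change over root F. On simulated counts for the drug comparison in HSVTK cells, 14% of 50 genes changed 1.2-fold, 72% of 50 changed 1.3-fold and 96% of 50 changed 1.5-fold were recovered among 17323 genes. The simulation gave every gene the same spread and changed a far smaller share of genes than the 28.5% called in the data. That makes its adjusted p threshold stricter, so its recovery need not hold for the data.

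Alternatives were library size scaling, DESeq2 1.42.0, no filter, limma 3.58.1 on log2(FPKM + 1) or (FPKM + 0.1), the replicate number as a block, only the 4 libraries compared, and leaving out each library. The genes and lists were chosen with earlier results of these data known. Every library's values are given for up to 8 called genes with the lowest adjusted p in each drug comparison and in their difference, up to 4 in each cell group comparison, and 1 in each role left without one. Up to 3 other replication genes per direction were named in the first 3 comparisons. The background of genes with a mean of at least 20 CPM was added after seeing the data. Promoters and gene order came from RefSeq and GENCODE tables of GRCm38, so no coordinates were joined to the counts.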

Additional observations from a re-analysis of the deposited data

Results flagged for a closer look

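For 16 of the 52 genes the response to ganciclovir differed between HSVTK and Control cells by the test of the difference itself (edgeR, adjusted p below 0.05), where 25.6% of all tested genes did. Values are the log2 response in HSVTK minus that in Control cells. The difference was negative for E2f1 (-0.81), Wee1 (-0.48), Mcm6 (-0.42), Cdc25a (-0.39), Dtl (-0.35), Gins2 (-0.33), Gmnn (-0.30), Gins1 (-0.29), Tipin (-0.28), Mcm5 (-0.25) and Mcm4 (-0.22). It was positive for Atm (0.84), Orc1 (0.34), Timeless (0.31), Pola1 (0.30) and Mcm10 (0.24). For Orc1, Mcm5 and Mcm10 the main edgeR fit called neither cell group alone, while scaling by library size called Orc1 and Mcm10 in HSVTK cells, and limma on log2(FPKM + 1) called Mcm10 there. Gmnn lost its call without Control DMSO 1 or HSVTK DMSO 2 (adjusted p = 0.0569 to 0.0704). Atm, Cdc25a, E2f1, Mcm6 and Wee1 were called in every alternative run.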

How the results depend on the processing

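Of the 52 genes, 9 of the 19 calls for ganciclovir in HSVTK cells held in every alternative run (Atm, Cdc25a, Chek1, Dtl, E2f1, Mcm4, Mcm6, Timeless and Wee1), 5 of the 16 for the difference of responses, 14 of the 26 and 4 of the 16 for HSVTK against Control cells under DMSO and ganciclovir, and 0 of the 2 in Control cells, where E2f1 lost its call with limma. No called value changed sign under any alternative. Leaving out a library of a compared group also lowered the share of all genes called, except without Control GANC 1 in Control cells. A lower count for the 52 in such a run is thus not by itself a change particular to them. Without 1 library each, the counts for the 52 ran from 10 to 21 for ganciclovir in HSVTK cells, 1 to 8 in Control cells, 7 to 19 for the difference, 16 to 30 under DMSO and 5 to 16 under ganciclovir. For the 57 other replication genes the same counts ran from 13 to 23, 1 to 15, 11 to 18, 19 to 32 and 10 to 15, and for the 18 G2 and M genes from 7 to 13, 0 to 5, 5 to 7, 7 to 12 and 5 to 10. With limma on log2(FPKM + 1) and on log2(FPKM + 0.1), the counts for the 52 were 12 and 11 for ganciclovir in HSVTK cells, 0 and 0 for Control cells (29 and 47 of all genes), 7 and 7 for the difference and 8 and 8 under ganciclovir. For the 57 they were 8 and 7, 0 and 0, 8 and 8, and 8 with the pseudocount of 1 under ganciclovir, and for the 18 they were 4 and 4, 0 and 0, 2 and 3, 6 and 6 under DMSO and 4 and 4 under ganciclovir. The fit of only the 4 libraries compared gave 1, 4 and 1 in Control cells for the 52, 57 and 18, and 10 for the 52 under ganciclovir. DESeq2 gave 4 for the 18 in Control cells. Scaling by library size moved the median of all genes by less than 0.06. Replicate numbers pair no libraries by the labels, and same-numbered libraries did not deviate together (correlations of -0.09 to 0.05). With the number as a replicate block, the counts for the 52 were 18, 2, 16, 26 and 14 in the order above. Each of the 52 held at least 561 counts in every library. The simulated recovery of 14% at 1.2-fold came from a setting with far fewer changed genes, so it need not hold here. In the data Tipin was called at -0.17 in HSVTK cells with ganciclovir. With 2 libraries per group small changes can still be missed.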
